A study of Oryza sativa with 18 samples.

Results

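The 10 enzyme genes that turn protoporphyrin IX into chlorophyll a and b were followed across rice (Oryza sativa) flag leaves at grain filling. They were chosen by locus for their place in the pathway, with earlier results of these data known, and are 10 of the 55986 loci in the table. They are CHLH, CHLD and CHLI, CHLM, CRD1, DVR, PORA and PORB, CHLG and CAO1. All 10 passed the filter on low counts. The lowest count of any of them in a library was 73, for CHLM, and the highest was 22907, for CHLH.

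Chlorophyll and heme share a plastid pathway up to protoporphyrin IX, and the metal inserted there decides the branch. Magnesium chelatase opens the chlorophyll branch, and the steps after it build the ring of chlorophyllide and attach a phytyl tail. In leaves the pathway supplies the pigment for newly made and repaired photosystems, and it is known to decline as leaves age.

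The leaves came from 3 genotypes of the phosphate exporter gene OsPHO1;2, grown in a paddy field. One was wild type (WT), one the mutant Ospho1;2-Ko1 (called Ko1 here) and one overexpressed the gene (OE), and all were sampled at 5DAF and 15DAF, which by usual reading are days after flowering. There were 6 groups of 3 libraries, and the total counts of these 18 lay between 13223554 and 18264909. The promoter of OE, the kind of mutation in Ko1 and the number of clones or lines behind each label are not stated, so a line's background and its change in OsPHO1;2 cannot be told apart. Since the labels do not give replicates as separate plants, every p-value reflects the scatter among these libraries, which may be technical. In bulk leaf, fewer green cells and less RNA per cell cannot be told apart.

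Both green-leaf marker lists were high in every library. The 17 light-harvesting genes summed to between 11442 and 41891 CPM (counts scaled to a common library size, here by TMM) and the 4 Rubisco small subunit genes to between 1957 and 12590 CPM. Glutelin genes of the grain (15, with 3 at 0 everywhere) summed to 10.5 to 22.3 CPM, prolamin genes (28, with 15 at 0) to 0.488 to 2.65 CPM, and core histone genes (43, with 3 at 0) to 1272 to 2031 CPM. As a sum, the 4 chlorophyll breakdown genes, listed for senescing leaf, lay wholly lower in Ko1 than in WT and OE at each stage. Singly they did not all do so at 5DAF. The stay-green gene SGR then read 3.45, 3.21 and 1.24 CPM in Ko1 and 0.910, 2.02 and 1.48 CPM in OE. In Ko1 it also overlapped WT at 5DAF, as did the breakdown genes PAO and RCCR1. The sums of the 4 genes at 5DAF were 152 to 247 CPM in Ko1, 284 to 583 CPM in WT and 385 to 495 CPM in OE. At 15DAF they were 488 to 695, 839 to 1002 and 809 to 937 CPM in the same order. OsPHO1;2 read 1.72 to 3.52 CPM in the WT libraries of both stages and 4.75 to 29.5 CPM in those of OE. In Ko1 it read 1.10 to 3.38 CPM at 5DAF and 6.07 to 6.14 CPM at 15DAF, where all 3 Ko1 libraries lay above every WT library. As the kind of mutation is not stated, the transcript does not test the Ko1 label.

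By the sums of the 10 genes and of the light-harvesting genes, a pair of libraries stood apart from their groups. In the library labelled WT 5DAF replicate 3 the 10 genes summed to 2563 CPM, against 5509 and 5192 CPM in the other WT 5DAF libraries. Its light-harvesting sum was 22861 CPM, against 41891 and 39288 CPM. In Ko1 15DAF replicate 2 the 10 genes summed to 3087 CPM, against 2137 and 1492 CPM in the other Ko1 15DAF libraries, and the light-harvesting sum was 31132 CPM against 18789 and 11442 CPM. The first sits among the Ko1 5DAF libraries, whose 10 genes summed to 2840, 2650 and 1996 CPM. Results that rest on either library are given with and without it. Each also enters the estimate of spread that all comparisons share. Other libraries stood apart by other measures. In log2 CPM over the genes tested, Ko1 5DAF replicate 3 correlated with its group at 0.931 and 0.945, against 0.973 between the rest. For WT 5DAF replicate 3 these were 0.940 and 0.933, against 0.961. The Rubisco sum of Ko1 15DAF replicate 3 was 1957 CPM, against 3287 and 3461 CPM in its group. What sets any of these libraries apart was not tested.

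The 10 genes differed widely in level per length. In WT leaves at 5DAF the mean FPKM (counts scaled by gene length and library total, n = 3) ran in the order CRD1 at 299, PORB at 181, CHLH at 178, CHLG at 80.1, CHLI at 66.5, CHLD at 57.7, PORA at 49.6, CAO1 at 45.1, CHLM at 32.6 and DVR at 11.4. Neighbours in this order overlapped in their WT 5DAF libraries, except that CHLH lay wholly above CHLG and CHLM wholly above DVR. At 15DAF the WT order began with CRD1 at 220.4 and CHLH at 109, and ended with PORA at 8.24, CHLM at 7.49 and DVR at 6.68 FPKM, where these last 3 overlapped. The length behind the FPKM exceeded the locus span for 4 of the 10 genes (CHLI, CRD1, PORA and CAO1), as for 1158 of 14683 genes checked, so the FPKM of these 4 may be understated. Comparisons below are therefore made within a gene, in CPM.

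**Figure D1:**
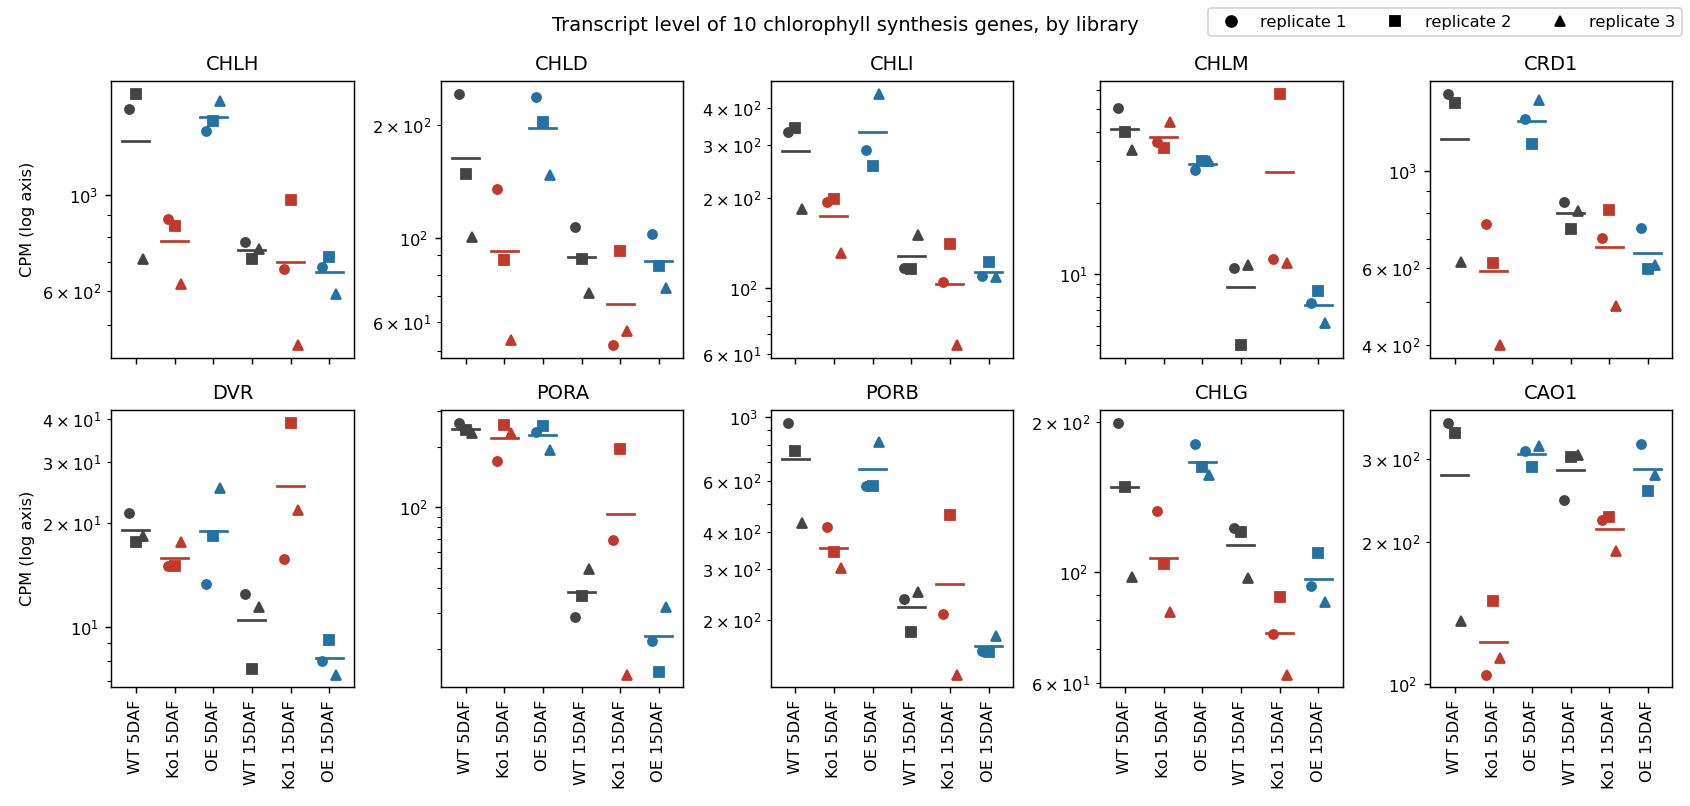
Level of each of the 10 chlorophyll synthesis genes in the 18 libraries, in CPM on a log axis that differs between panels. Circles, squares and triangles are replicates 1, 2 and 3, and the horizontal line is the group mean. WT 5DAF replicate 3 is the lowest WT 5DAF library in all but DVR, and Ko1 15DAF replicate 2 is the highest Ko1 15DAF library in all 10 panels.

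At 5DAF, early in grain filling, the genotypes were compared to see which enzyme genes differ in the leaf of the mutant. Against OE, 5 of the 10 genes were lower in Ko1 (the magnesium chelatase genes CHLH, CHLD and CHLI, the cyclase gene CRD1 and the chlorophyll b gene CAO1) and none was higher. Of all 20437 genes tested, 7.93% were lower in this comparison. Against WT none of the 10 passed with all libraries, although all 10 fold changes were negative, and without WT 5DAF replicate 3 it was 7 that were lower. None of the 10 passed between OE and WT. The comparisons at 1 stage share libraries, so their fold changes are given side by side and are not independent.

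The magnesium chelatase is built of CHLH (LOC_Os03g20700, chromosome 3, 11712169 to 11720131; the sources used here do not name the rice build of these coordinates), which binds the porphyrin, and of the subunits CHLD and CHLI, whose ATPase ring drives the insertion. CHLH read 881, 847 and 623 CPM in Ko1 leaves at 5DAF and 1408, 1485 and 1646 CPM in OE. In WT it read 1580.2, 1715 and 711 CPM, so Ko1 lay wholly below OE but overlapped WT through replicate 3. Its log2 fold change in Ko1 was −0.95 against OE (SE 0.288, edgeR adjusted p = 0.0361) and −0.77 against WT (SE 0.287, edgeR adjusted p = 0.177).

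CHLD (LOC_Os03g59640, chromosome 3, 33955198 to 33961962) read 135, 87.7 and 53.5 CPM in Ko1, 238, 204 and 147 CPM in OE and 243, 148 and 101 CPM in WT. It was the most scattered of the chelatase genes within groups, yet Ko1 and OE did not overlap (log2 −1.09, SE 0.338, edgeR adjusted p = 0.0382). CHLI (LOC_Os03g36540, chromosome 3, 20247674 to 20250146) read 193, 198 and 130.2 CPM in Ko1, 290.4, 257 and 448 CPM in OE and 334, 342 and 184 CPM in WT. The Ko1 libraries again lay below OE (log2 −0.93, SE 0.286, edgeR adjusted p = 0.0376), while 1 WT library fell within the Ko1 range. Against WT the values of CHLD and CHLI were −0.83 and −0.72 (edgeR adjusted p = 0.203 and 0.195).

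The product of the chelatase is methylated by CHLM (LOC_Os06g04150, chromosome 6, 1733935 to 1735135). CHLM read 36.3, 34.1 and 43.9 CPM in Ko1, 27.6, 29.97 and 29.9 CPM in OE and 50.4, 39.9 and 33.5 CPM in WT at 5DAF. It was the one gene of the 10 with a positive value against OE, and it did not pass (log2 0.39, SE 0.452, edgeR adjusted p = 0.58).

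CRD1 (LOC_Os01g17170, chromosome 1, 9874326 to 9876951) encodes the cyclase subunit that closes the isocyclic ring of the pigment. It read 755, 617 and 399 CPM in Ko1, 1314, 1151 and 1454 CPM in OE and 1506, 1436 and 618 CPM in WT. Ko1 was lower than OE with no overlap (log2 −1.15, SE 0.292, edgeR adjusted p = 0.0199). Against WT its value was −1.008 (SE 0.291, edgeR adjusted p = 0.131).

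DVR (LOC_Os03g22780, chromosome 3, 13155800 to 13157404), which reduces a vinyl group on the ring, read 15.0, 14.99 and 17.6 CPM in Ko1, 13.3, 18.3 and 25.2 CPM in OE and 21.4, 17.5 and 18.3 CPM in WT. The 3 genotypes overlapped. Its values in Ko1 were −0.25 against OE and −0.27 against WT (edgeR adjusted p = 0.566 and 0.631).

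PORA and PORB are the light-dependent protochlorophyllide oxidoreductases. In rice PORA is known for greening from the dark and PORB for synthesis in the light. PORA (LOC_Os04g58200, chromosome 4, 34663055 to 34664723) read 170.4, 255 and 232 CPM in Ko1, 236, 253 and 193 CPM in OE and 262, 241 and 233 CPM in WT. Its genotypes overlapped, with a log2 value of −0.05 against OE (95% interval −1.08 to 0.97, edgeR adjusted p = 0.955).

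PORB (LOC_Os10g35370, chromosome 10, 18900290 to 18904022) read 417, 342 and 301 CPM in Ko1, 579, 579 and 820.5 CPM in OE and 955, 763 and 431 CPM in WT. All 3 Ko1 libraries lay below all OE and all WT libraries. With all libraries neither difference passed (log2 −0.90 against OE, edgeR adjusted p = 0.0839, and −1.02 against WT, edgeR adjusted p = 0.155). Without Ko1 15DAF replicate 2, a library of none of these groups, PORB passed against OE (edgeR adjusted p = 0.0288) and not against WT (edgeR adjusted p = 0.106). Against OE that fit had 6 of 10 lower, where 1819 of 20864 genes tested were lower.

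CHLG (LOC_Os05g28200, chromosome 5, 16512069 to 16517848) is the chlorophyll synthase that joins the tail to the ring. It read 132, 104 and 83.0 CPM in Ko1, 180.3, 163 and 156 CPM in OE and 199, 148 and 97.8 CPM in WT. Ko1 lay below OE without overlap and just missed the threshold (log2 −0.64, SE 0.222, edgeR adjusted p = 0.0559).

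CAO1 (LOC_Os10g41780, chromosome 10, 22482198 to 22486537), the oxygenase that makes chlorophyll b from chlorophyll a precursors, gave the lowest value of the 10. It read 105, 150.1 and 113 CPM in Ko1, 313, 289 and 320.3 CPM in OE and 359, 341 and 136 CPM in WT. Ko1 was below OE by a log2 value of −1.33 (SE 0.261, edgeR adjusted p = 0.0115), and the other WT libraries lay with OE. Its neighbour and paralog CAO2 had at most 1 count in a library. How reads shared by paralogs were counted is not stated.

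The call on CAO1 held in 5 of 6 fits that left out 1 Ko1 or OE library and was lost without Ko1 5DAF replicate 3 (log2 values from −1.51 to −1.23). The other 4 were less steady. The number of lower genes was 0 without Ko1 5DAF replicate 3 and 1 without OE 5DAF replicate 1 or replicate 3. It was 2 without Ko1 5DAF replicate 2 and 3 without OE 5DAF replicate 2. Without Ko1 5DAF replicate 1 all 5 calls held and CHLG also passed (edgeR adjusted p = 0.0287).

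Against WT, edgeR called none of the 10 at 5DAF, where 0.00979% of all genes were lower. At an unadjusted p under 0.05 it was 7, where 11% of all genes were lower, and DESeq2 called CRD1 and CAO1, where 2.47% of the genes it tested were lower. The median of the 10 was −0.74, against −0.0032 over all genes tested. Without WT 5DAF replicate 3, 7 of 10 were lower, where 7.41% of all genes were. That library was already known to hold low values of these same genes, so its omission and these calls are not independent of each other. The 7 were CHLH (log2 −1.08), CHLD (−1.09), CHLI (−0.96), CRD1 (−1.32), PORB (−1.29), CHLG (−0.71) and CAO1 (−1.52, SE 0.171, edgeR adjusted p = 9.89e-05). CHLM, DVR and PORA lay between −0.31 and −0.21 and did not pass. The same fit gave 6 lower in Ko1 against OE, with CHLG added, where 10.3% of all genes were lower. The light-harvesting sums ran from 20933 to 24125 CPM in Ko1 and from 34839 to 39625 CPM in OE at 5DAF, and their part in these differences was not tested.

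**Figure D2:**
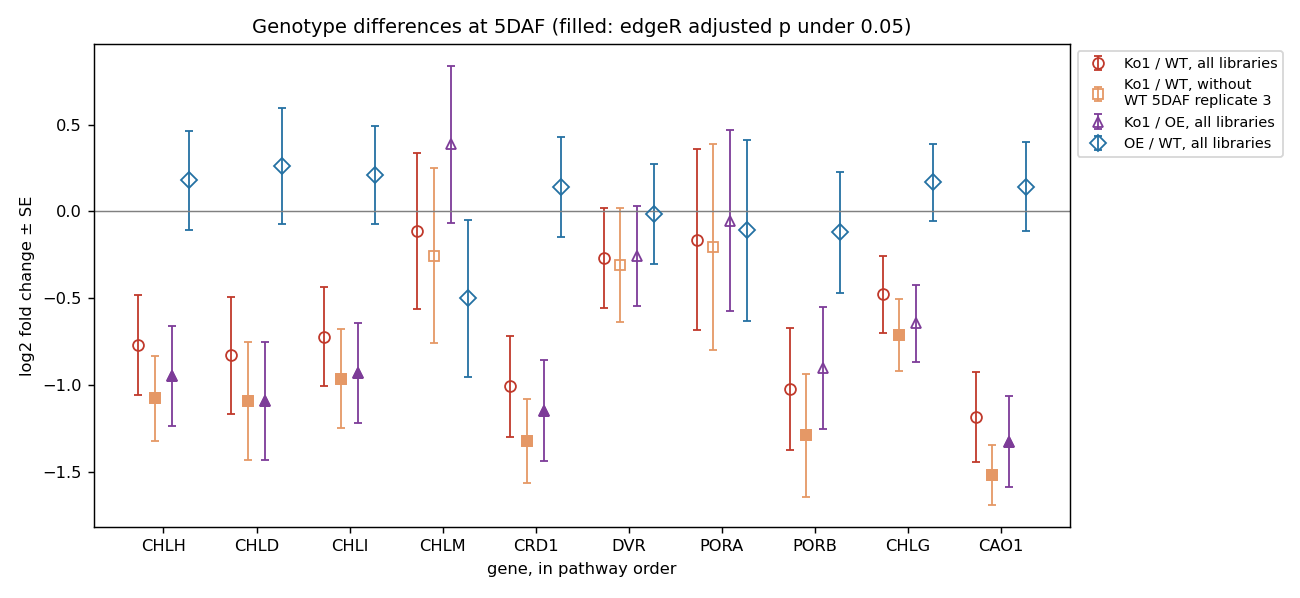
Log2 fold changes with their SE between genotypes at 5DAF for the 10 genes in pathway order, where filled symbols passed the edgeR threshold. The triangles of Ko1 against OE are filled for CHLH, CHLD, CHLI, CRD1 and CAO1, the squares of Ko1 against WT without replicate 3 for 7 genes, and no diamond of OE against WT is filled.

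OE leaves gave no call at either stage. At 5DAF the 10 values against WT ran from −0.50 (CHLM) to 0.26 (CHLD), where 0.0391% of all genes passed in either direction. At 15DAF they ran from −0.73 (PORA) to 0.00 (CAO1), where 0.0245% of all genes passed. Every OE library lay below every WT library for CHLM at 5DAF and for PORB at 15DAF (log2 −0.45), although neither passed. At an unadjusted p under 0.05 edgeR had 0 of 10 at both stages, against 7.19% of all genes at 5DAF and 3.16% at 15DAF. DESeq2 also called 0 of 10 at both, against 0.46% and 0.13% of the genes it tested. These intervals are wide. The 95% interval for PORA at 15DAF ran from −1.78 to 0.32 and that for CHLH at 5DAF from −0.38 to 0.74.

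At 15DAF, later in filling, CHLM and DVR were higher in Ko1. Against WT 2 of the 10 passed as higher and none as lower, where 6.53% of all genes were higher. Against OE 3 passed as higher (CHLM, DVR and PORA) and none as lower, where 7.69% were higher. Without Ko1 15DAF replicate 2 it was DVR alone in both comparisons, where 5.63% and 6.52% of all genes were higher.

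DVR read 15.7, 38.9 and 21.8 CPM in Ko1, 12.5, 7.55 and 11.4 CPM in WT and 7.98, 9.18 and 7.29 CPM in OE at 15DAF. Every Ko1 library was above every WT and OE library. Its log2 fold change was 1.28 against WT (SE 0.292, edgeR adjusted p = 0.0118) and 1.64 against OE (SE 0.296, edgeR adjusted p = 0.00214). Without Ko1 15DAF replicate 2 these were 0.84 (edgeR adjusted p = 0.0497) and 1.20 (edgeR adjusted p = 0.008). The call against OE held in 6 of 6 fits without 1 library. The call against WT held in 5 of 6 and was lost without WT 15DAF replicate 2, where edgeR gave an adjusted p = 0.0672.

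CHLM read 11.6, 58.0 and 11.1 CPM in Ko1, 10.5, 4.96 and 10.9 CPM in WT and 7.51, 8.41 and 6.16 CPM in OE. The Ko1 libraries all lay above the others, but replicate 2 was far above its own group and the rest lay just above WT. Without that library the value fell from 1.60 to 0.36 against WT (edgeR adjusted p = 0.403) and from 1.86 to 0.62 against OE (edgeR adjusted p = 0.138). CHLM also lost its call against WT without any 1 WT 15DAF library, and against OE without any 1 OE 15DAF library.

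PORA ranged most widely of the 10 in Ko1 at 15DAF. It read 69.1, 194 and 14.9 CPM there, 28.6, 36.4 and 49.6 CPM in WT and 21.7, 15.3 and 32.1 CPM in OE. The lowest Ko1 library was below every WT and OE library, so the groups overlapped although edgeR called the value of 2.01 against OE (SE 0.549, edgeR adjusted p = 0.0242). Without Ko1 15DAF replicate 2 it was 0.86 (edgeR adjusted p = 0.2), and the call was also lost without OE 15DAF replicate 1 or replicate 2.

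The other 7 genes gave no call at 15DAF. CHLG and CAO1 were lower in Ko1 in every library than in WT but did not pass (log2 −0.59 and −0.42, edgeR adjusted p = 0.0929 and 0.296). CAO1 read 223, 226 and 192 CPM in Ko1, 246, 304 and 306 CPM in WT and 323, 257 and 278 CPM in OE. CHLG read 75.1, 88.9 and 62.2 CPM in Ko1 and 123, 120.3 and 97.1 CPM in WT. CHLH, CHLD, CHLI and CRD1 gave values from −0.41 to −0.09 against WT, and PORB gave 0.26.

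**Figure D3:**
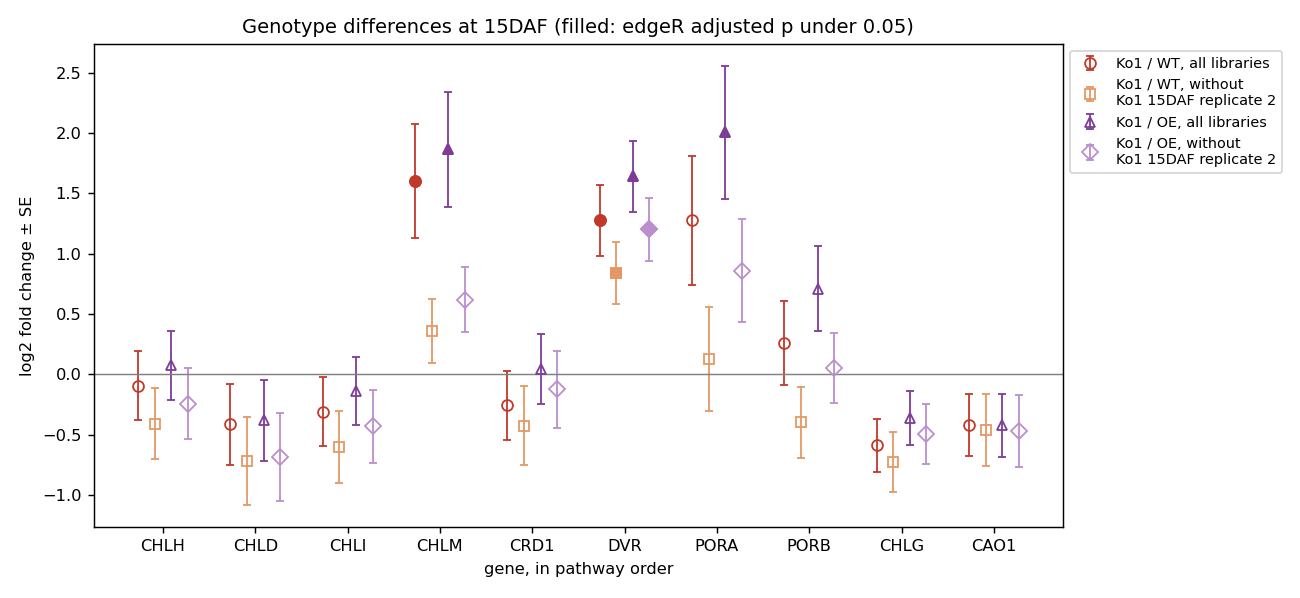
Log2 fold changes with their SE between Ko1 and the other genotypes at 15DAF, with all libraries and without Ko1 15DAF replicate 2, where filled symbols passed the edgeR threshold. CHLM and PORA drop towards 0 without that library, and DVR is filled in all 4 comparisons.

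From 5DAF to 15DAF many of the enzyme genes fell in WT and OE, by unequal amounts. In WT 4 of the 10 were lower (CHLI, CHLM, PORA and PORB), where 9.15% of all genes were lower. In OE 9 were lower, all but CAO1, where 13.6% of all genes were. In Ko1 no gene was lower (9.58% of all genes) and CAO1 was higher (10.5% of all genes). The medians of the 10 were −0.87 in WT, −1.20 in OE and −0.44 in Ko1, against −0.02, 0.02 and 0.00 over all genes tested. Without Ko1 15DAF replicate 2 the median in Ko1 was −0.70.

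PORA fell furthest. Its mean went from 245 ± 15.0 to 38.2 ± 10.6 CPM in WT and from 227 ± 31.1 to 23.0 ± 8.46 CPM in OE (SD, n = 3), with no overlap between stages. The log2 fold changes were −2.68 in WT (SE 0.558, edgeR adjusted p = 0.0032) and −3.30 in OE (SE 0.575, edgeR adjusted p = 0.00038).

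CHLM came next in WT, from 41.3 ± 8.52 to 8.80 ± 3.33 CPM (log2 −2.22, SE 0.478, edgeR adjusted p = 0.00398), and fell by 1.99 in OE. PORB went from 717 ± 265 to 222 ± 35.6 CPM in WT (log2 −1.69, SE 0.358, edgeR adjusted p = 0.00356) and fell by 2.02 in OE. These 3 calls in WT held in 6 of 6 fits without 1 library. CHLI fell by 1.17 in WT (edgeR adjusted p = 0.00973) and by 1.55 in OE, and its WT call was lost without WT 15DAF replicate 2.

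Among the others in OE, DVR fell by 1.21, CHLH by 1.19, CHLD by 1.18, CRD1 by 1.009 and CHLG by 0.78. The OE stages did not overlap for any of these. In OE, CRD1 lost its call in 3 of 6 fits without 1 library, CHLD in 2 and CHLG in 1. In WT the same 5 genes gave values from −0.88 to −0.39 and did not pass with all libraries. Without WT 5DAF replicate 3 it was 8 of 10 that were lower in WT, all but DVR and CAO1 (8.63% of all genes). Without Ko1 15DAF replicate 2, which is not a WT library, 6 of 10 were lower in WT, where 2081 of 20864 genes tested were. That fit added CHLH and DVR (edgeR adjusted p = 0.0359 and 0.0179).

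No fall of CAO1 with stage passed the test in any genotype. In WT it was 279 ± 124 CPM at 5DAF and 285 ± 34.0 CPM at 15DAF, and in OE 307 ± 16.3 and 286 ± 33.7 CPM (SD, n = 3). The log2 fold changes were 0.03 in WT (95% interval −0.47 to 0.54) and −0.10 in OE (95% interval −0.61 to 0.40). In Ko1 it rose from 123 ± 24.2 to 214 ± 19.0 CPM with no overlap (log2 0.80, SE 0.259, edgeR adjusted p = 0.0369). That call was kept in 1 of 6 fits without 1 library, the one without Ko1 5DAF replicate 2, with values from 0.70 to 0.97.

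In Ko1 the stage change turns on Ko1 15DAF replicate 2. Without it 4 genes were lower at 15DAF (9.95% of all genes), namely PORA (log2 −2.38), CHLM (−1.75), PORB (−1.06) and CHLI (−1.05), and CAO1 did not pass (0.76, edgeR adjusted p = 0.079). DVR gave a positive value in Ko1, 0.68 with all libraries and 0.25 without replicate 2, and passed in neither.

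**Figure D4:**
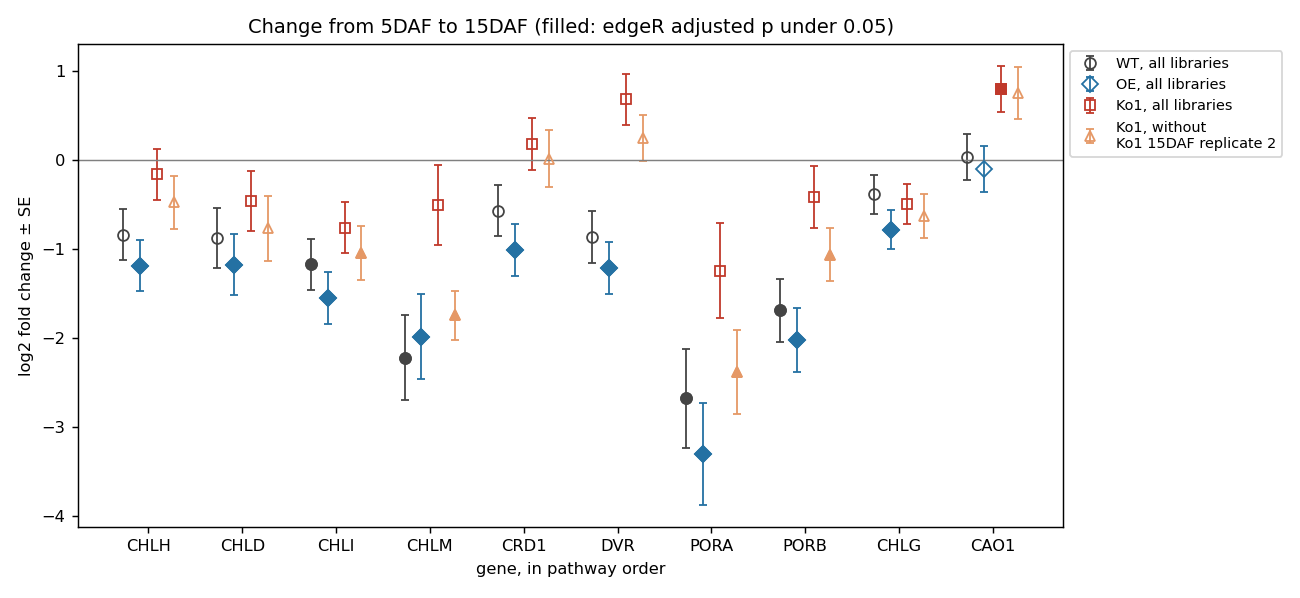
Log2 fold changes with their SE from 5DAF to 15DAF in each genotype for the 10 genes in pathway order, where filled symbols passed the edgeR threshold. CHLM, PORA and PORB lie lowest in WT and OE, CAO1 lies near 0 there, and the Ko1 values without replicate 2 lie below those with it in all 10 genes.

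Ratios of counts within a library compare the make-up of the set between stages without regard to gene length or library scale. Counts of PORB per count of PORA ran from 1.30 to 4.26 in the 9 libraries at 5DAF and from 2.36 to 10.1 in the 9 at 15DAF. The mean ratio went from 2.89 ± 0.931 to 6.08 ± 1.88 in WT and from 2.999 ± 1.09 to 7.58 ± 2.31 in OE (SD, n = 3). In Ko1 the libraries read 2.45, 1.34 and 1.30 at 5DAF and 3.02, 2.36 and 8.69 at 15DAF, so the stages overlapped and the high mean at 15DAF rests on replicate 3. CAO1 held 3.68% to 6.80% of the counts of the 10 genes at 5DAF and 7.33% to 14.4% at 15DAF, and no library of 1 stage lay in the range of the other. These ratios were chosen after the values were seen and were not tested.

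Whether the genotype differences themselves changed with stage was tested as a difference of differences. The change of the Ko1 to WT difference gave 0 of 10, where 0.46% of all genes were higher at 15DAF than at 5DAF by this measure, and 3 of 10 at an unadjusted p under 0.05, where 5.4% of all genes were. DESeq2 called DVR alone, where 1.11% of the genes it tested were higher. Without WT 5DAF replicate 3 edgeR called CAO1 (log2 1.11, SE 0.231, edgeR adjusted p = 0.0465), where 0.34% of all genes passed. Without Ko1 15DAF replicate 2 edgeR called 0 of 10, where 114 of 20864 genes tested were higher. That fit had 1 of 10 at an unadjusted p under 0.05, where the share of all genes was not counted. The median of the 10 went from 0.76 with all libraries to 0.42 without that one. The change of the OE to WT difference gave 0 of 10 and 0% of all genes. DESeq2 also called 0 of 10, against 0.0588% of the genes it tested, and edgeR had 0 of 10 at an unadjusted p under 0.05, against 6% of all genes.

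The change of the Ko1 to OE difference, a comparison chosen after the data were seen, called DVR alone (0.445% of all genes higher). DVR went from −0.25 at 5DAF to 1.64 at 15DAF, a change of 1.90 (SE 0.411, edgeR adjusted p = 0.0446). All 10 changes were positive, with a median of 1.11 against 0.01 over all genes tested, and 7 of 10 were at an unadjusted p under 0.05, where 6.6% of all genes were. The call on DVR was lost with the replicate number as a block (edgeR adjusted p = 0.0675) and in a fit of only the groups compared (edgeR adjusted p = 0.0826). DVR kept its call in 3 of 12 fits without 1 library. Without Ko1 15DAF replicate 2 its change was 1.46 (edgeR adjusted p = 0.0738) and none of the 10 passed, where 0.494% of all genes did. The median of the 10 was then 0.78 against 0 over all genes tested, and 4 of 10 were at an unadjusted p under 0.05. The share of all genes at that threshold was not counted for this fit.

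Replicates of these enzymes were scattered. The pooled SD of log2 CPM within groups ran from 0.294 for CHLG to 0.820 for PORA, and all 10 exceeded the median of 0.248 over 12053 genes with a mean of at least 10 CPM. CHLH followed the mean course of the 10 most closely over the 18 libraries, with a root mean square difference of 0.219 on the centred log2 scale. PORA followed it least, at 1.05, then CAO1 at 0.737, CHLM at 0.705 and DVR at 0.553. Each of the 10 is part of that mean, so these values are not on a par with those of genes outside it.

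The rest of the pathway was described from 24 other genes, of which 22 were tested. These were 10 genes of the steps before magnesium chelatase and 4 of the heme branch. The others were 1 gene for the phytyl tail, 4 regulators and 3 genes that convert chlorophyll b. In Ko1 against OE at 5DAF 9 of the 22 were lower and none higher, where 7.93% of all genes were lower. They included HEMA1, the glutamyl-tRNA reductase that commits carbon to the pathway (log2 −0.95), GSA, which makes 5-aminolevulinate (−0.85), and HEMC, the porphobilinogen deaminase (−0.82). NYC1, a chlorophyll b reductase, was at −1.13. GLK1, a transcription factor known to activate chlorophyll and light-harvesting genes, read 62.6, 48.4 and 34.5 CPM in Ko1 and 179, 216 and 198 CPM in OE (log2 −2.03, SE 0.396, edgeR adjusted p = 0.0113). Against WT none of the 22 passed at 5DAF, and 10 were lower without WT 5DAF replicate 3, where 7.41% of all genes were. Among the 4 chlorophyll breakdown genes, kept apart from the 22, 3 were also lower in Ko1 than in OE at 5DAF, against the same 7.93%. Against WT 0 of these 4 passed with all libraries, and 3 were lower without WT 5DAF replicate 3, against the same 7.41%.

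At 15DAF 2 of the 22 were higher in Ko1 than in WT and 1 was lower, where 6.53% and 4.43% of all genes were. The lower one was the heme oxygenase gene LOC_Os03g27770 (log2 −0.71, and −0.89 without Ko1 15DAF replicate 2, edgeR adjusted p = 0.0408 and 0.0232). GLK2, the second GLK factor, was higher in Ko1 than in WT (log2 1.67, edgeR adjusted p = 0.0166). Its Ko1 libraries read 38.9, 106 and 27.1 CPM, and without replicate 2 the value was 0.88 (edgeR adjusted p = 0.0869). LIL3, which holds geranylgeranyl reductase at the membrane, was higher in Ko1 than in OE with and without that library (0.75 and 0.70, edgeR adjusted p = 0.00423 and 0.0126). Against WT it was higher with all libraries (0.56, edgeR adjusted p = 0.0244) and did not pass without that one (0.51, edgeR adjusted p = 0.0596).

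With stage, 8 of the 22 were lower and 1 higher in WT, 11 lower and 1 higher in OE, and 6 lower and 2 higher in Ko1. Over all genes the shares were 9.15% lower and 7.57% higher in WT, 13.6% and 13.1% in OE, and 9.58% and 10.5% in Ko1. The coproporphyrinogen oxidase gene LOC_Os04g52130 fell in all 3 genotypes, by 1.81 in WT, 2.13 in OE and 1.39 in Ko1. Of the 4 chlorophyll breakdown genes 3 were higher at 15DAF in WT and in OE and 4 in Ko1, against the same shares of 7.57%, 13.1% and 10.5% higher. SGR, the stay-green protein that removes magnesium from chlorophyll, went from 4.96 ± 4.49 to 71.9 ± 8.59 CPM in WT (SD, n = 3). Its log2 fold change there was 3.87 (SE 0.506, edgeR adjusted p = 7.81e-05).

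Among 12043 other genes with a mean of at least 10 CPM, the one whose course was most like the mean of the 10 was GGR (LOC_Os02g51080, chromosome 2, 31246225 to 31248818). It encodes geranylgeranyl reductase, which makes the phytyl tail that CHLG attaches. The root mean square difference over the 18 libraries was 0.106 on the centred log2 scale, against a median of 0.689 over the genes ranked. GGR read 970.4, 936 and 458 CPM in WT and 501, 423 and 381 CPM in Ko1 at 5DAF, and 331, 601 and 228 CPM in Ko1 at 15DAF. It thus shared the low WT 5DAF replicate 3 and the high Ko1 15DAF replicate 2. The next were LOC_Os07g09370 (a pentatricopeptide protein, 0.166), LOC_Os08g44290 (an RNA recognition motif protein, 0.169), LOC_Os09g09790 (a protein with an Fe-S metabolism domain, 0.195) and LOC_Os04g42030 (0.202). All libraries enter both courses, so the likeness is a description.

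**Figure D5:**
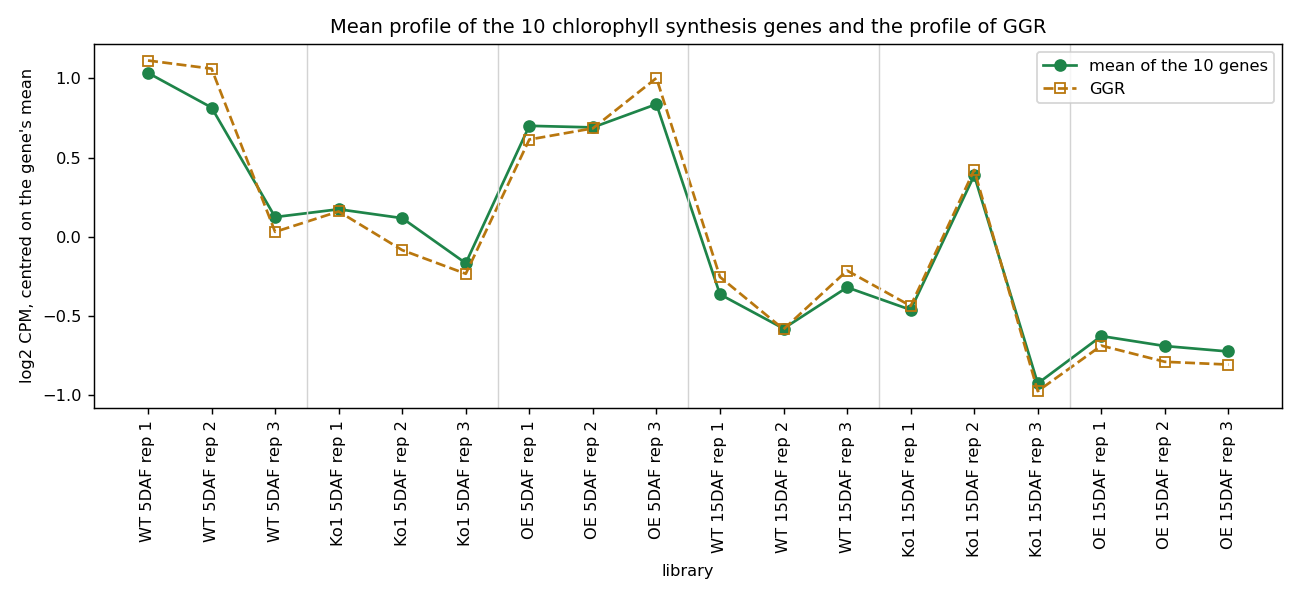
Mean course of the 10 chlorophyll synthesis genes (circles) and the course of GGR (squares) over the 18 libraries, as log2 CPM centred on each gene's mean. Both are high in WT 5DAF replicates 1 and 2 and in OE at 5DAF, low in OE at 15DAF, and rise in Ko1 15DAF replicate 2.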

How the data were processed

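Gene expression was measured by RNA sequencing in 18 flag leaf libraries. The deposited table gives counts per gene and library, raw per the file headers, and FPKM, which the authors scaled by library total and gene length per the file headers. Bowtie 0.12.2 and the build mm8 are named per the submitters' processing notes; mm8 is a mouse build, although the table lists rice loci. A rice build, an annotation and a counting tool are not named there or in the labels, and strand use is not stated, so overlapping antisense reads cannot be told apart.

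Of 55986 loci 29055 had a count above 0, and 20437 passed filterByExpr and were tested. Library sizes were TMM-scaled. A quasi-likelihood fit of 6 group means (edgeR 4.0.16) gave 12 two-sided contrasts, adjusted by Benjamini-Hochberg over all genes tested, with 0.05 as the threshold. CPM errors are SDs over 3 libraries. FPKM was used only for levels between genes. Likeness used log2 CPM with a prior count of 2. The procedure was tested on simulated counts.

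The 10 genes and all lists were chosen with earlier results of these data known. All 10 are named in every contrast. Other pathway genes may be named if called, at most 4 per list and contrast by size, as may the 5 genes most like the mean of the 10, and OsPHO1;2 is always named. Genes named for their values in contrasts where they did not pass were chosen after those were seen. Symbols of pathway genes come from lists written for this work, and the RefSeq gene table shares no identifier with the counts. The alternatives tried were RLE size factors, DESeq2 1.42.0, testing without the low-count filter, a replicate block, fits of only the groups compared, and leaving out each library in turn. Fits without 2 libraries and the change of the Ko1 to OE difference were added after seeing the data.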

Additional observations from a re-analysis of the deposited data

Results flagged for a closer look

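DVR, which reduces a vinyl group of the chlorophyll ring, differed between the stages in how Ko1 compared with OE. The Ko1 to OE difference was −0.25 at 5DAF and 1.64 at 15DAF, and the test of the change itself gave 1.90 on the log2 scale (SE 0.411, edgeR adjusted p = 0.0446). The call was lost with the replicate number as a block (edgeR adjusted p = 0.0675), in a fit of only the groups compared (edgeR adjusted p = 0.0826) and in all but 3 of 12 fits that left out 1 library. Over the fits that left out 1 library the change ran from 1.46 to 2.18 and edgeR adjusted p from 0.0156 to 0.128. At 15DAF all 3 Ko1 libraries lay above the 3 OE libraries, and at 5DAF the groups overlapped.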

How the results depend on the processing

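Counts below are of the 10 genes that passed. No fold change of the 10 that passed with all libraries changed sign under any alternative run, and no scaling moved the median of all genes by over 0.1. For Ko1 against WT at 5DAF the count of 0 became 1 with no low-count filter, 2 with DESeq2 and 7 without WT 5DAF replicate 3 (range 0 to 7 over fits without 1 library). For Ko1 against WT at 15DAF the count of 2 became 1 in a fit of only the groups compared and ran from 0 to 3 without 1 library. For Ko1 against OE the 5 at 5DAF ran from 0 to 6 and the 3 at 15DAF from 1 to 3 without 1 library, and at 15DAF the count was 1 in a fit of only the groups compared. From 5DAF to 15DAF the count of 4 in WT became 7 with DESeq2 and ran from 3 to 8 without 1 library. The count of 1 in Ko1 became 2 with DESeq2, 2 without WT 5DAF replicate 3, and ran from 0 to 4. The 9 in OE ran from 6 to 9. The change of the Ko1 to WT difference gave 1 with DESeq2 and 0 to 1 without 1 library. The change of the Ko1 to OE difference gave 0 in a fit of only the groups compared, 2 with DESeq2 and 0 to 2 without 1 library. Without both WT 5DAF replicate 3 and Ko1 15DAF replicate 2 the counts were 7 for Ko1 against WT at 5DAF, 1 for Ko1 against OE at 15DAF, 9 for stage in WT, 6 for stage in Ko1 and 0 for the change of the Ko1 to OE difference. Without both WT 5DAF replicate 3 and Ko1 5DAF replicate 3 they were 2 for Ko1 against WT at 5DAF, 3 for Ko1 against OE at 5DAF, 8 for stage in WT, 3 for stage in Ko1 and 0 for that change. The cause of these shifts was not tested, other than that fewer samples entered. With the replicate number as a block, DVR in the change of the Ko1 to OE difference had edgeR adjusted p = 0.0675, so the count was 0. Same-numbered libraries correlated above 0.1 in 5 of 45 pairs (−0.205 to 0.251), and the numbers were not taken to pair libraries. For WT with Ko1 at 5DAF the values were 0.251, 0.0673 and 0.245 for replicates 1, 2 and 3. In the same order they were 0.172, −0.151 and −0.135 for WT with OE at 5DAF. Ko1 with OE at 5DAF gave 0.145, −0.0417 and −0.0151, so replicate 1 lay above 0.1 in each genotype pair at 5DAF. Libraries with different numbers in different groups were not compared in this way.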
